A study of Mus musculus with 18 samples.

Results

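The genes described here are 9 core genes of autophagy and mitophagy, followed through skeletal muscle and fat of obese mice given the glucocorticoid prednisone. They are Ulk1, Becn1, Map1lc3a, Map1lc3b, Gabarapl1, Sqstm1, Bnip3, Bnip3l and Tfeb, which is 9 of the 33641 gene symbols in the deposited table. The rule that picks them is a list of names and uses no measured value, although the list was drawn up with earlier results of these data known. All 9 were found, spread over 74 annotated transcripts, and all 9 passed the filter on low values in both tissues. The animals were wild-type male DBA/2J mice, an inbred laboratory strain, given as about 20 weeks of age. They were fed a high-fat diet for 12 weeks before treatment and for the 12 weeks of treatment. The stated age is less than these periods together, so it is not taken here as the age at collection. Vehicle was injected into the peritoneum once a day, and prednisone at 1 mg/kg either once a week or once a day. Quadriceps muscle and white adipose tissue were collected 24 hours after the last injection from each of 9 mice, 3 per regimen, which gave 18 libraries. The fat depot is not given in the sources used here.

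Autophagy encloses cytoplasm in a double membrane, the autophagosome, and delivers it to the lysosome for breakdown. The kinase ULK1 starts the process, the beclin 1 complex makes the lipid signal on the growing membrane, proteins of the LC3 and GABARAP families are attached to that membrane, and receptors such as p62 tie cargo to them. Mitophagy is the same process aimed at mitochondria, either through the BNIP3 and NIX receptors in the mitochondrial outer membrane or through the kinase PINK1. In muscle, autophagy genes are known to be raised by fasting, denervation and FoxO factors, and TFEB is a transcription factor of lysosomal and autophagy genes.

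Levels are in TPM, transcript abundances per unit of length, which add up to the same sum in each library by the authors' scaling. Such values hold no read counts, so the depth behind each level is unknown. The error comes from the spread between the 3 mice of a group, pooled over the 3 regimens. The fit also draws each gene's spread towards a trend over all genes tested. The p-values therefore measure a pooled and moderated spread between mice. Transcripts of the mitochondrial genome took 27.5% to 31.3% of the sum in muscle and 12.9% to 16.9% in fat. Ckm, the creatine kinase of skeletal muscle, stood at 15453 to 19127 TPM in muscle, and Adipoq, the adipocyte hormone adiponectin, at 2876 to 3756 TPM in fat. Ckm in fat was 176 and 130.4 TPM in weekly libraries 2 and 3 and 109 TPM in daily library 2, against 13.2 to 35.0 TPM in the other 6. The third library of every group lay between the other two for 40.7% to 52.2% of genes in muscle and 42.6% to 51.2% in fat, where an equal share would be 33.3%. Calls are therefore also given without the third libraries. With fewer libraries per group the calls over all genes tested fell as well. In muscle they went from 1674 to 7 (daily against vehicle) and from 217 to 9 (weekly against daily). In fat they went from 1052 to 1 (weekly against vehicle). A call lost in this setting therefore does not set a gene apart from the others.

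Bnip3l, which encodes NIX, had 2 annotated coding transcripts whose listed levels changed places between the tissues. The letters that separate them are shown for that reason, chosen after their levels were seen. The sequences are from the GENCODE transcripts of the GRCm38 assembly, minus strand of chromosome 14, and read towards the end of the coding sequence. Lower case marks the last 30 bases that both transcripts share, and capitals mark what follows up to and including the stop codon. The first stretch is joined across an intron and lies within chr14:66987727-66989164. The second enters an extra exon of 42 bases at chr14:66988900-66988941 and stops within it. Transcripts that join past this exon, a noncoding one included, still held 15.5 to 26.4 TPM in muscle.
Bnip3l-201: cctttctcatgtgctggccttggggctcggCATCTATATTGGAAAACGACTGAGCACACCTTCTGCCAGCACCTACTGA
Bnip3l-202: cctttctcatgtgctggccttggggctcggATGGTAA

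The coding sequence of Bnip3l-201 is 654 bases long and that of Bnip3l-202 is 612 bases, stop codon not included. After the shared stretch the former carries 49 bases and the latter 7, here with the stop codon included. The reference is not of the DBA/2J strain, so letters of these mice may differ.

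The level of each member was first compared within a tissue. Sqstm1, which encodes the cargo receptor p62, was the most abundant member in muscle of vehicle mice, at 395 ± 23.0 TPM (SD, n = 3). Map1lc3a and Map1lc3b, encoding LC3 proteins, stood at 269 ± 11.9 and 107 ± 0.357 TPM. Bnip3, a mitophagy receptor induced by low oxygen, lay between these at 131 ± 1.16 TPM. Below them came Bnip3l, Tfeb, Becn1, Gabarapl1 and Ulk1, at means of 72.7, 66.4, 49.9, 36.6 and 24.1 TPM. No neighbours in this order overlapped in their 3 vehicle libraries. In fat of the same mice Map1lc3a came first at 629 ± 26.2 TPM and Ulk1 last at 16.4 ± 1.48 TPM. Gabarapl1 and Map1lc3b, with means of 168 and 162 TPM there, overlapped.

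**Figure D1:**
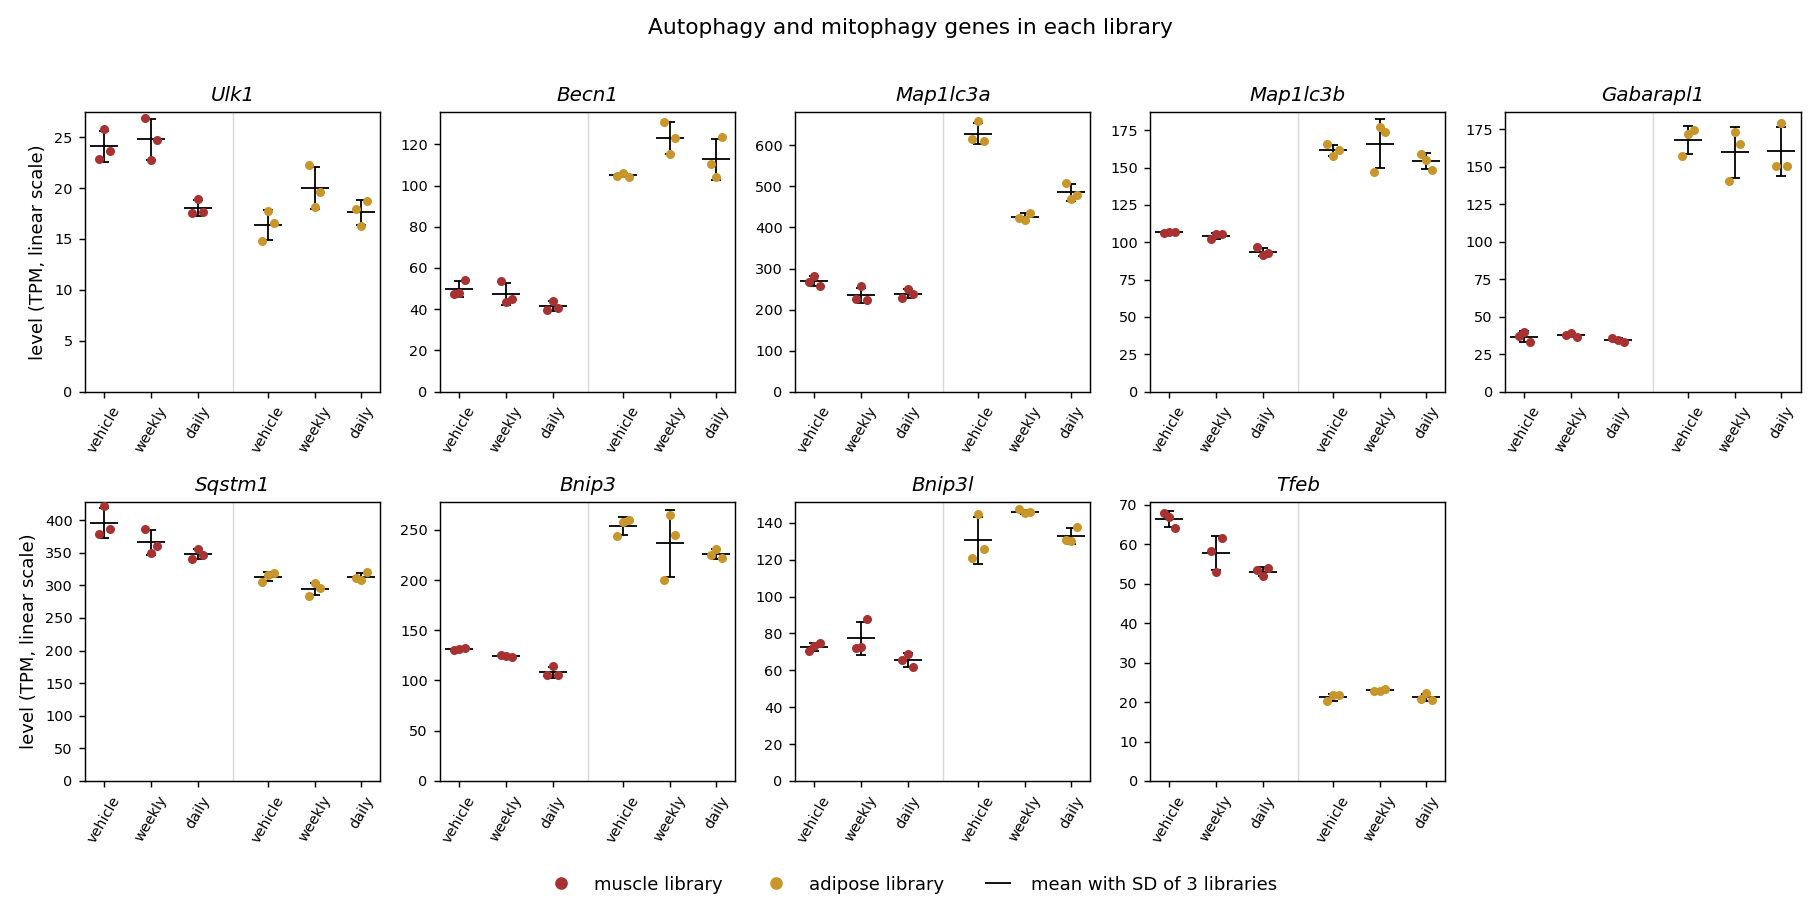
Level of each member in TPM on a linear axis from 0, by regimen, with 1 point per library (red for muscle, ochre for fat) and the mean with SD of 3 libraries in black. Tfeb sits higher in muscle in every library, Gabarapl1 and Map1lc3a higher in fat. Map1lc3a in fat lies at 611 to 659 TPM with vehicle and at 417 to 435 TPM with weekly prednisone.

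The tissues were then compared within each vehicle mouse, as the muscle minus the adipose value of log2(TPM + 1), with limma. All 9 members were called, that is, had a Benjamini-Hochberg adjusted p under 0.05. This share is near the background, since 87.0% of the 11737 genes tested were called. Of the members 3 were higher and 6 lower in muscle, where 13.1% of all genes tested were called higher and 73.9% lower. Tfeb was 1.60 ± 0.08 (SE) log2 units higher in muscle, with 68.0, 67.0 and 64.1 TPM against 20.2, 21.8 and 21.7 TPM in fat (adjusted p = 2.99e-08). Ulk1 and Sqstm1 were also higher in muscle, by 0.53 and 0.33. Thus the members higher in muscle were the initiating kinase, p62 and the transcription factor.

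Gabarapl1, an LC3 relative, was lower in muscle by 2.17 log2 units on this scale (-2.17 ± 0.10, adjusted p = 2.07e-08). Its libraries read 37.2, 40.0 and 32.8 TPM in muscle and 157, 172 and 175 TPM in fat. Map1lc3a was also lower in muscle (-1.22 ± 0.08), as were Becn1 (-1.06), Bnip3 (-0.94), Bnip3l (-0.83) and Map1lc3b (-0.59). The median of all genes tested was -0.88 on this scale and moved to 0.09 with TMM factors and to -0.02 with quantile normalization. Under TMM scaling Map1lc3b, Bnip3l, Bnip3 and Becn1 turned to 0.52, 0.28, 0.17 and 0.044, and under quantile normalization Map1lc3b turned to 0.16. Map1lc3b was then called higher in muscle under both scalings and Bnip3l under TMM, while Bnip3 and Becn1 were not called under TMM. Map1lc3a kept its sign without a call under TMM (-0.10), and Bnip3l did so under quantile normalization (limma, adjusted p = 0.605). Gabarapl1 stayed lower and Tfeb, Ulk1 and Sqstm1 stayed higher in muscle under both scalings. Across all genes tested 1533 were called higher and 8676 lower in muscle, against 4916 and 4112 with TMM factors.

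Daily prednisone was compared with vehicle in muscle. Ulk1, Tfeb, Bnip3 and Map1lc3b were lower in muscle of mice given prednisone every day, by 12.3% to 25.2% of the vehicle mean. These are 4 of the 9 members, against 13.7% of the 12246 genes tested that were called in either direction and 11.8% that were called lower. No member was called higher. The median difference of the 9 was -0.19 log2 units and that of all genes tested -0.09. In 8 of 9 members every daily library lay below every vehicle library, with Gabarapl1 the exception, while 27.8% of all genes tested did so. All fold changes here are on the log2(TPM + 1) scale.

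Ulk1, the kinase that starts autophagosome formation, read 22.9, 25.8 and 23.6 TPM with vehicle and 17.6, 18.9 and 17.6 TPM with daily prednisone. The groups did not overlap, and the mean fell by 25.2%. The difference was -0.40 ± 0.07 (SE; limma, adjusted p = 0.00997). Becn1, whose product beclin 1 is part of the lipid kinase complex, had values of 47.4, 48.0 and 54.2 TPM with vehicle and 39.5, 44.1 and 40.6 TPM with daily prednisone. Its groups did not overlap either, yet it missed the threshold (-0.26 ± 0.09, adjusted p = 0.0775).

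Map1lc3b was nearly constant in vehicle mice at 106, 107 and 107 TPM. With daily prednisone it read 96.6, 91.3 and 92.9 TPM. All 3 lay under the lowest vehicle library, and the gene was called lower (-0.19 ± 0.04, adjusted p = 0.0178). Map1lc3a, its close relative, read 268, 281 and 257 TPM with vehicle and 228, 251 and 237 TPM with daily prednisone. It was not called (-0.17 ± 0.07, adjusted p = 0.115). Gabarapl1 had the smallest difference of the 9 (-0.08 ± 0.07, adjusted p = 0.487) and overlapping groups. Sqstm1, the cargo receptor, ran from 379 to 422 TPM with vehicle and from 341 to 356 TPM with daily prednisone, just short of a call (-0.18 ± 0.05, adjusted p = 0.0555).

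Among the mitophagy genes, Bnip3 read 130.3, 131 and 133 TPM with vehicle and 105, 114 and 105 TPM with daily prednisone. The daily libraries all lay below the lowest vehicle library. Bnip3 had the smallest adjusted p of the members in this comparison (-0.28 ± 0.04, adjusted p = 0.00627). Bnip3l, the related receptor, had means of 72.7 ± 2.25 and 65.4 ± 3.71 TPM and was not called (-0.15 ± 0.08, adjusted p = 0.237). Tfeb, the transcription factor, read 68.0, 67.0 and 64.1 TPM with vehicle and 53.4, 51.9 and 54.0 TPM with daily prednisone. These groups did not overlap and the mean fell by 20.0% (-0.32 ± 0.06, adjusted p = 0.0108).

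**Figure D2:**
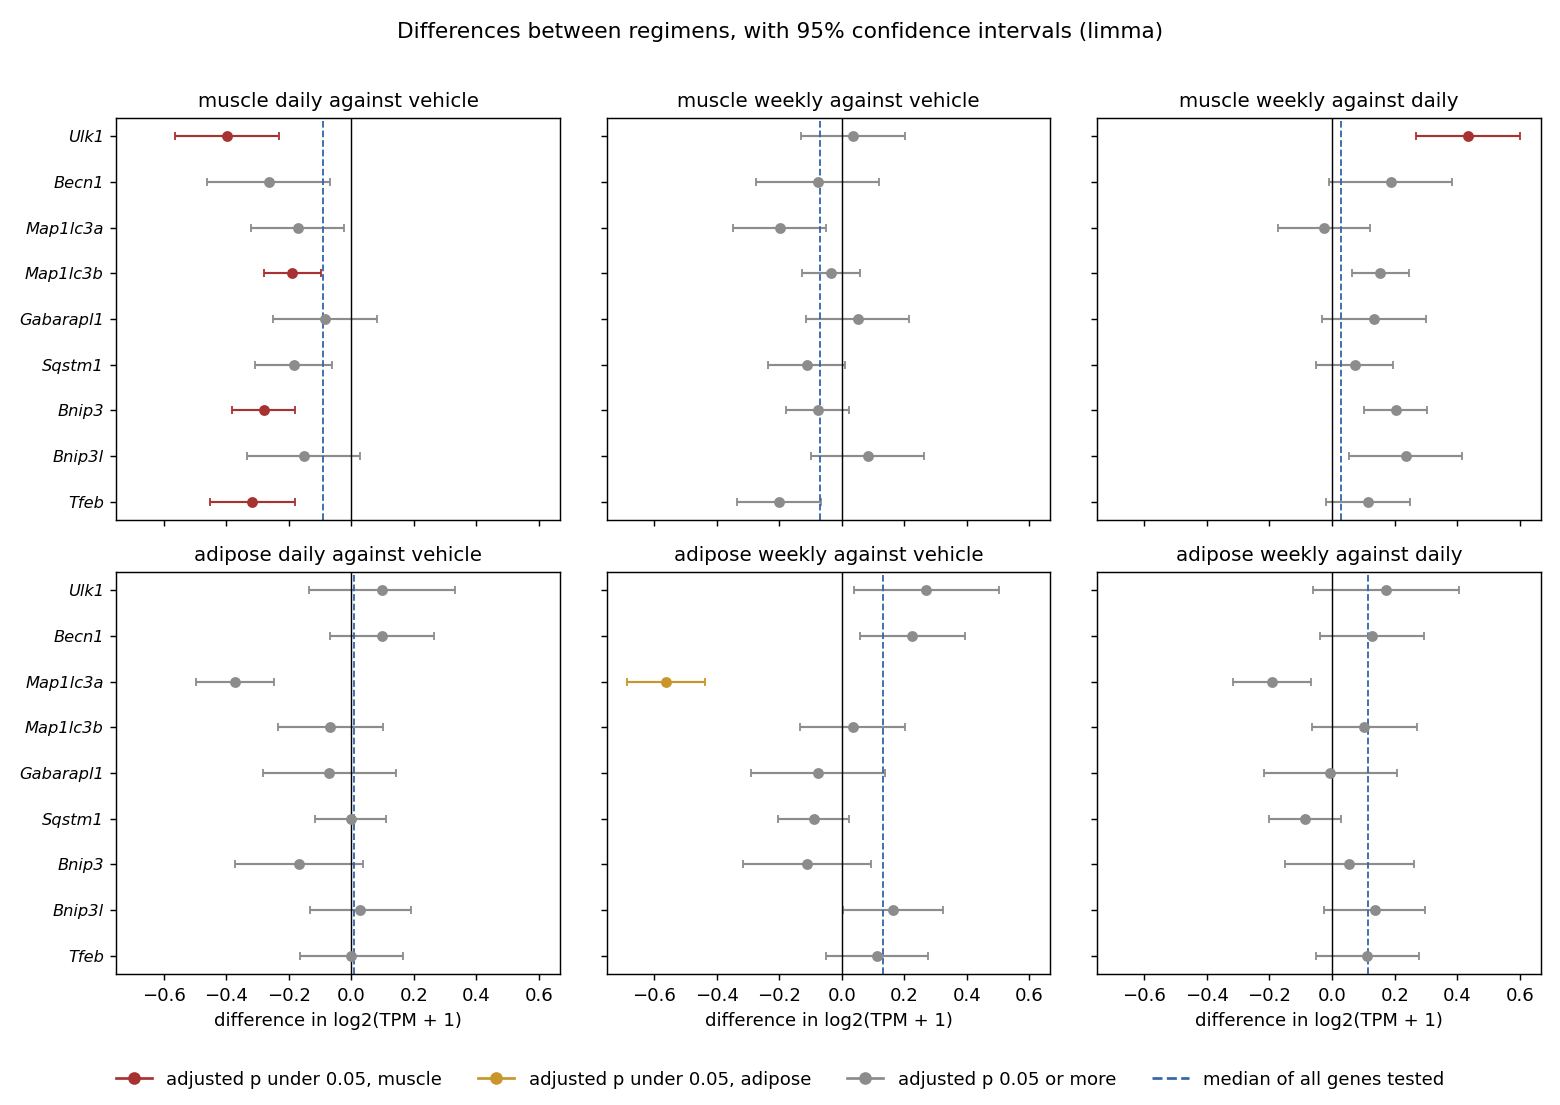
Difference in log2(TPM + 1) between regimens for each member, with limma's 95% confidence interval. Coloured points have an adjusted p under 0.05, grey points do not, and the dashed line is the median of all genes tested. In muscle with daily prednisone all 9 points lie below 0 and 4 are coloured, and in fat the single coloured point is Map1lc3a with weekly prednisone at -0.56.

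The 4 calls depended on how TPM was scaled. With TMM factors Ulk1 alone was called (-0.31, adjusted p = 0.0467), and with quantile normalization none was, where Ulk1, Bnip3 and Tfeb had adjusted p of 0.0519, 0.0699 and 0.102. Of the 9 members 8 stayed below 0 in all 18 alternatives, while Gabarapl1 ranged from -0.16 to 0.046. Over all genes tested, 234 were called higher and 1440 lower, against 336 and 443 with TMM factors. With the third libraries left out none of the 4 was called (limma, adjusted p = 0.149 to 0.291), at differences of -0.40 for Ulk1, -0.35 for Tfeb, -0.25 for Bnip3 and -0.18 for Map1lc3b. In that setting 7 of all genes tested were called, in place of 1674. Ulk1 also lost its call without daily library 3 (adjusted p = 0.052), and Map1lc3b without vehicle library 2 or daily library 3 (up to 0.0805), with eBayes without trend (0.0529) and with both tissues in 1 fit (0.059).

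Markers of other cell states moved with the same regimen. Of the 10 markers of regenerating or denervated muscle 9 were called higher with daily prednisone, where 1.91% of all genes tested were called higher. Their summed level ran from 152 to 240 TPM against 26.0 to 38.2 TPM with vehicle. Myh3, the embryonic myosin of that list, stood at 29.5, 16.6 and 20.5 TPM against 0.147 to 1.16 TPM. Myh3 passed the filter of 1 TPM in 3 libraries only through the daily libraries, where it is high. Genes let in this way were not taken out of the count of 9, which is a description and no support. Of 14 macrophage markers 12 were tested, of which 4 were called higher and 3 had differences below 0. The sums of this list were 404 to 626 TPM against 249 to 363 TPM. Among its genes Cd68 read 12.4 to 24.4 TPM against 5.57 to 9.89 TPM, and the lysozyme gene Lyz2 225 to 315 TPM against 97.3 to 142 TPM. The 10 adipocyte markers summed to 837 to 2037 TPM against 1524 to 2020 TPM. None was called, while all 10 differences lay below 0 with a median of -0.49 log2 units. No marker of these lists was at 0 throughout a group of muscle libraries. Their part in the members' differences was not tested. In a piece of tissue fewer cells of a type cannot be told apart from less RNA of a gene in each cell.

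Weekly prednisone was compared with vehicle in muscle, and no member was called by limma. Unadjusted p was under 0.05 for 2 of the 9 members and for 15.4% of all genes tested, and 0.049% of all genes tested were called. Tfeb had 58.3, 53.1 and 61.7 TPM with weekly prednisone, all below the 64.1 to 68.0 TPM of vehicle mice (-0.20 ± 0.06, adjusted p = 0.196). Map1lc3a had 225, 256 and 222 TPM against 257 to 281 TPM (-0.20 ± 0.07, adjusted p = 0.226). The groups did not overlap for 4 members, all lower with weekly prednisone, as for 19.3% of all genes tested. Ulk1 was at 26.9, 22.8 and 24.8 TPM, within and around the vehicle range (0.04, 95% confidence interval -0.13 to 0.20).

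The regimens were also set against each other in muscle. Ulk1 was the member called, 0.44 ± 0.07 higher with weekly than with daily prednisone (adjusted p = 0.0247), where 1.77% of all genes tested were called and 0.915% were called higher. Its weekly libraries ran from 22.8 to 26.9 TPM and its daily libraries from 17.6 to 18.9 TPM. Bnip3 followed at 126, 125 and 123 TPM against 105, 114 and 105 TPM, without a call (0.20 ± 0.04, adjusted p = 0.0603). Map1lc3b (0.15, adjusted p = 0.0978) and Bnip3l (0.24, adjusted p = 0.172) were not called. For 5 members the groups did not overlap, all higher with weekly prednisone, as for 14.7% of all genes tested. The call of Ulk1 was lost without the third libraries (adjusted p = 0.618) and without weekly library 1 or 3 or daily library 1 or 3 (up to 0.146). It was also lost with a replicate block and with only these groups in the fit. Both comparisons with daily prednisone use the same 3 daily libraries.

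In fat the member called between regimens was Map1lc3a, with weekly prednisone against vehicle. It read 616, 659 and 611 TPM with vehicle and 423, 417 and 435 TPM with weekly prednisone. The groups lay far apart, and the mean fell by 32.3%. The difference was -0.56 ± 0.06 (limma, adjusted p = 0.00306), which placed Map1lc3a sixth of 14150 genes by p. Across these genes 7.43% were called and 1.72% were called lower, and the median difference of all genes was 0.13. Map1lc3a kept its call in 19 of 20 alternatives, from -0.74 to -0.47, and lost it without the third libraries (adjusted p = 0.248).

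The other 8 members were not called in fat with weekly prednisone. Of the 9 members 4, Map1lc3a included, had an unadjusted p under 0.05 (limma), as did 30.8% of all genes tested. Becn1 read 131, 115 and 123 TPM against 104, 106 and 104 TPM with vehicle (0.23 ± 0.07, adjusted p = 0.0830). Ulk1 read 22.2, 18.1 and 19.6 TPM against 14.8, 17.8 and 16.6 TPM (0.27 ± 0.10, adjusted p = 0.117). Both therefore lay above the vehicle libraries, as did Tfeb and Bnip3l, while Sqstm1 at 284 to 303 TPM lay below its vehicle range of 305 to 319.5 TPM. This made 4 members wholly above and, with Map1lc3a, 2 wholly below the vehicle libraries, as were 27.6% and 7.88% of all genes tested. Map1lc3b, from the same family as Map1lc3a, read 147, 177 and 174 TPM against 158 to 166 TPM (0.04, 95% confidence interval -0.13 to 0.20). Gabarapl1 had an interval of -0.29 to 0.14. The median of all genes moved from 0.13 to -0.02 with TMM factors, where 407 genes were called higher and 841 lower in place of 809 and 243. Under the alternatives tried, Becn1 and Ulk1 gained a call with Ckm as a covariate, a setting that called 30.3% of all genes. Ulk1 also gained one with both tissues in 1 fit, which called 21.2% of all genes. Bnip3 had a call without the 3 libraries high in Ckm, but that leaves 1 weekly library, which is assumed to vary like the other groups.

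Markers moved with weekly prednisone in fat as well. Of 8 fibroblast and progenitor markers 5 were called higher, where 5.72% of all genes tested were called higher. Their sums were 1841 to 2206 TPM against 1405 to 1476 TPM with vehicle. Of 14 macrophage markers 4 were called higher, with sums of 2935 to 3494 TPM against 2326 to 3147 TPM, and of 6 mesothelial markers 3, with sums of 75.8 to 134 TPM against 50.2 to 77.3 TPM. The 10 adipocyte markers summed to 39112 to 40016 TPM against 40714 to 41599 TPM, with none called. The 12 skeletal muscle markers summed to 199 to 1706 TPM against 167 to 282 TPM, again with none called. No difference of the 11 tested among them lay below 0, with a median of 1.84 log2 units against 0.13 for all genes tested. No marker of these lists was at 0 throughout a group. Their part in the lower Map1lc3a was not tested.

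With daily prednisone Map1lc3a in fat read 509, 469.5 and 479.6 TPM. Every one of these was below the vehicle libraries and above the weekly ones. The difference from vehicle was -0.37 ± 0.06 with the fourth smallest p of all genes, but it was not called after adjustment (limma, adjusted p = 0.151). No member was called in this comparison, where 0.00707% of all genes tested were called. Unadjusted p was under 0.05 for 1 of the 9 members and for 9.22% of all genes tested. Bnip3 at 222 to 231 TPM also lay below its vehicle range of 244 to 259.97 TPM (-0.17 ± 0.09, adjusted p = 0.618), which made 2 members wholly below vehicle, as were 7.93% of all genes tested. Weekly against daily prednisone gave no call in fat among the members (limma, 0.311% of all genes called), and unadjusted p was under 0.05 for 1 of the 9 and for 15.8% of all genes. Map1lc3a was the member with that p, at -0.19 ± 0.06 (adjusted p = 0.200).

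Whether a regimen acted differently in the tissues was tested on the muscle minus fat value of each mouse. No member was called for daily prednisone (limma, 0.0511% of all genes called), and unadjusted p was under 0.05 for 3 of the 9 and for 13.8% of all genes. For weekly prednisone none was called either (limma, 2.78% of all genes called), and unadjusted p was under 0.05 for 4 of the 9 and for 28.1% of all genes. The lower Ulk1 in muscle and the lower Map1lc3a in fat are therefore not shown to be particular to a tissue (adjusted p of the difference = 0.144 and 0.0793).

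Because the table is by transcript, each gene's level could be split. Map1lc3a had 2 main transcripts, the coding Map1lc3a-201 (46.4% of the gene in muscle, 34.7% in fat) and the shorter Map1lc3a-203, annotated without a coding sequence (49.5% and 60.4%). In muscle the coding transcript read 140.5, 144 and 131 TPM with vehicle and 101, 101 and 94.4 TPM with daily prednisone. It was called lower (-0.49 ± 0.06, limma over 24128 transcripts, adjusted p = 0.00698), where 4.71% of all transcripts were called lower. With weekly prednisone it read 101, 114 and 106 TPM, also below every vehicle library but not called (-0.37 ± 0.06, adjusted p = 0.110). Map1lc3a-203 read 117, 123 and 117 TPM with vehicle and 116, 143 and 134 TPM with daily prednisone, with no call (0.13 ± 0.09, adjusted p = 0.468). The sum that stands for the gene thus joined a transcript that was called lower and one that was not, and the gene itself was not called.

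In fat with weekly prednisone it was Map1lc3a-203 that was called (-0.68 ± 0.06, limma, adjusted p = 0.0163), where 0.0138% of 36256 transcripts were called lower. Its libraries went from 389.8, 415 and 376 TPM with vehicle to 230.4, 251 and 256 TPM. Map1lc3a-201 read 197, 214 and 209 TPM with vehicle and 164, 143 and 166 TPM with weekly prednisone, in groups that did not overlap (-0.39 ± 0.10, adjusted p = 0.153). In that comparison both transcripts were thus at lower levels. The call of Map1lc3a-203 was lost without vehicle library 2 or 3 or weekly library 3 (adjusted p up to 0.0725). These transcripts overlap, so their split is an estimate of the authors' quantification and was not tested here.

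**Figure D3:**
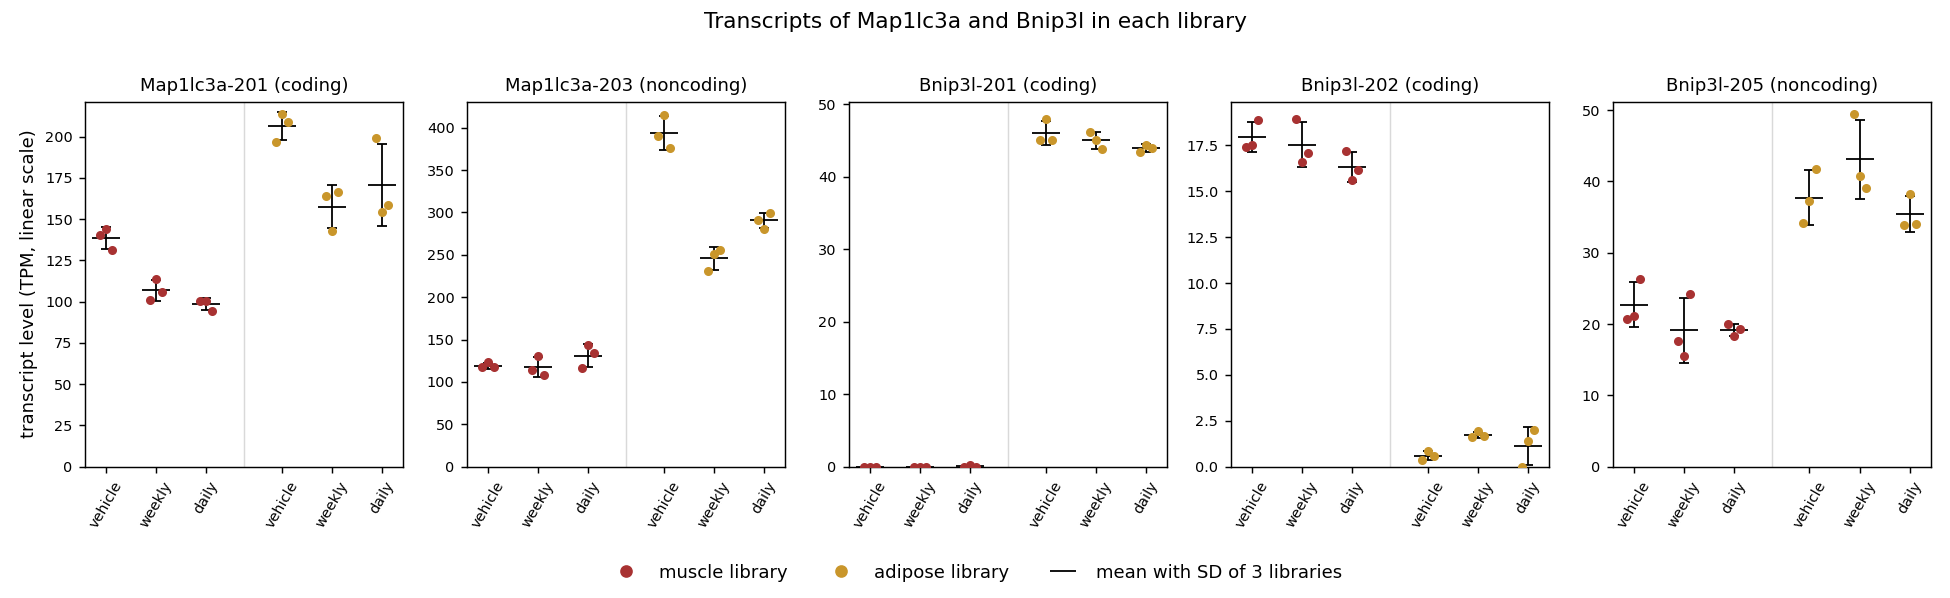
Level in TPM, on linear axes from 0, of the main Map1lc3a transcripts and of 3 Bnip3l transcripts, with 1 point per library and the mean with SD of 3 libraries. Map1lc3a-201 is lower in muscle with daily prednisone while Map1lc3a-203 is not. Bnip3l-201 sits at 43.4 to 48.0 TPM in fat and at 0 to 0.172 TPM in muscle, and Bnip3l-202 is high in muscle and near 0 in fat.

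The transcripts of Bnip3l divided by tissue. Bnip3l-201, the longer coding sequence printed above, held 43.4 to 48.0 TPM in all 9 fat libraries and was listed at 0 in 8 of 9 muscle libraries, with 0.172 TPM in the ninth. Bnip3l-202, which takes up the extra exon and ends early, held 15.6 to 18.9 TPM in muscle and 0 to 2.02 TPM in fat. The 2 coding transcripts thus changed places between the tissues, in every mouse. A listed 0 can be a failed estimate, and another transcript bears on this. Bnip3l-205, annotated without a coding sequence, also joins past the extra exon and held 15.5 to 26.4 TPM in muscle. Transcripts that join past the exon, Bnip3l-201 and Bnip3l-205 together, made up 21.5% to 35.3% of the gene in muscle and 56.7% to 69.0% in fat. The transcript with the exon made up 19.5% to 26.3% in muscle and 0% to 1.46% in fat. None of the Bnip3l transcripts was called between regimens.

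Other members showed their own make-up. Gabarapl1, Map1lc3b, Bnip3, Sqstm1 and Tfeb had 97.1% to 100% of their muscle level in coding transcripts. Becn1 had 15.5% in muscle and 13.0% in fat, because its largest entries, Becn1-201 and Becn1-211, are annotated as a target of nonsense-mediated decay and as a retained intron. The main coding transcripts of Ulk1, Bnip3 and Map1lc3b were called lower with daily prednisone too, which with Map1lc3a-201 made 4 member transcripts. Ulk1-201 (adjusted p up to 0.077) and Map1lc3b-201 (up to 0.0708) lost the call without vehicle library 2 or daily library 3, and Bnip3-201 without daily library 3 (0.0631).

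The rest of the pathway was read from a list of 92 further genes in 10 steps, of which 90 were tested in muscle and 91 in fat. With daily prednisone 15 were called lower and 2 higher in muscle, against the 13.7% of all genes given above. Of all genes tested 11.8% were called lower and 1.91% higher. The list's median was -0.11, against -0.09 for all genes. By step, 2 of 4 genes of the ULK1 complex, 4 of 7 of membrane supply and 1 of 11 of conjugation were called lower. So were 2 of 13 of fusion with the lysosome, 2 of 10 of mitophagy and 2 of 8 other cargo receptors. Of the lysosomal targets of TFEB 1 of 22 was called lower, and of the FoxO factors and relatives of TFEB 1 of 5. None of the 8 nucleation genes or of the 2 further LC3 and GABARAP family genes was called (limma). With TMM factors 3 were called lower and 3 higher, and without the third libraries none was.

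Pink1, the kinase that marks damaged mitochondria, had the smallest adjusted p of the list. It read 408, 401 and 387 TPM with vehicle, 356, 333 and 335.5 TPM with weekly and 262, 267 and 261 TPM with daily prednisone. The 3 groups did not overlap, with daily prednisone lowest. Pink1 was lower with daily prednisone than with vehicle (-0.60 ± 0.04, limma, adjusted p = 0.000288) and higher with weekly than with daily (0.37 ± 0.04, adjusted p = 0.00354). Each call held in 17 of 18 alternatives, failing without the third libraries. Atg4d, a protease that processes LC3 proteins, fell from 39.7 ± 1.01 to 29.6 ± 2.18 TPM (-0.41, adjusted p = 0.00545). Foxo4, a FoxO transcription factor, fell from 51.8 ± 1.97 to 39.0 ± 2.49 TPM (-0.40, adjusted p = 0.00545). Atg9a, the membrane protein of the vesicles that seed autophagosomes, fell from 55.7 ± 1.44 to 42.6 ± 3.46 TPM (-0.38, adjusted p = 0.00818). The calls of Atg4d and Foxo4 failed without the third libraries (adjusted p = 0.146 and 0.149), and that of Atg9a failed there (0.183) and with TMM factors or quantile normalization (0.0637 and 0.0783).

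**Figure D4:**
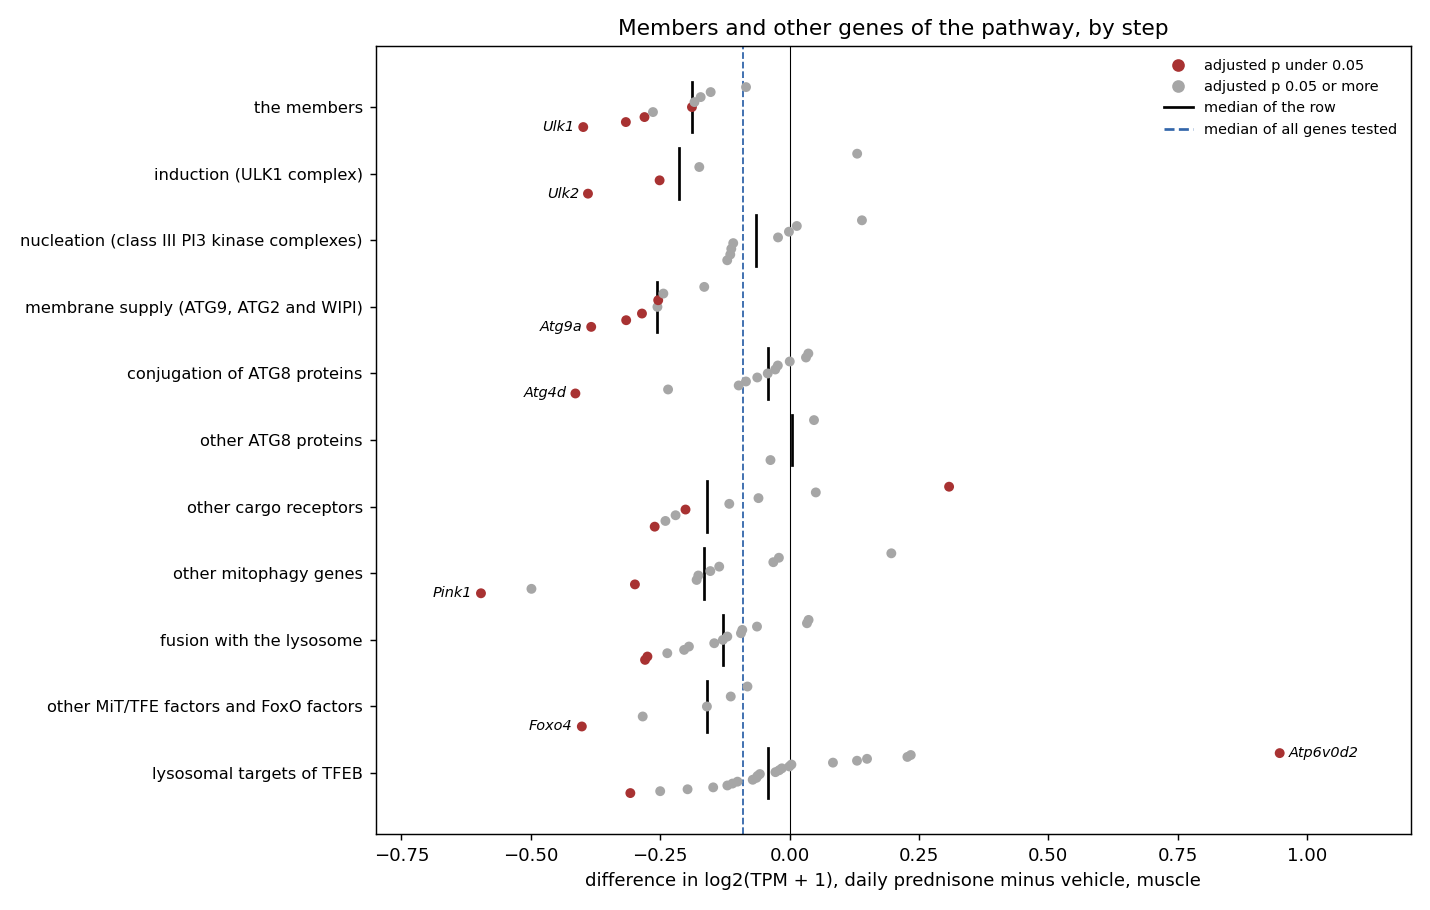
Difference in log2(TPM + 1) between daily prednisone and vehicle in muscle for the 9 members and the 90 tested genes of the wider list, 1 point per gene, in rows by step. Red points have an adjusted p under 0.05, black bars are row medians and the dashed line is the median of all genes tested at -0.09. Pink1 lies furthest left at -0.60 and Atp6v0d2 furthest right at 0.95.

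The 2 genes called higher were of the lysosome and of glycogen. Atp6v0d2, a subunit of the proton pump of the lysosome, was at 2.28, 1.13 and 1.45 TPM with daily prednisone against 0.162 to 0.716 TPM with vehicle (0.95 ± 0.20, limma, adjusted p = 0.0152). It passed the filter of 1 TPM in 3 libraries only through the 3 daily libraries, where it is high, so its call is a description and its place in the count of 2 is no support. It stands in the list of 22 lysosomal targets of TFEB, of which 1 was called higher and 1 lower, and Tfeb itself was lower. Atp6v0d2 also stood higher in fat, at 10.8 to 22.0 TPM, and the macrophage sums given above moved in the same direction. The part of macrophages or of Tfeb in the level of Atp6v0d2 was not tested. Stbd1, which ties glycogen to autophagosomes, rose from 38.8 ± 2.83 to 48.4 ± 5.03 TPM (0.31 ± 0.08, adjusted p = 0.0328). Atp6v0d2 lost its call without vehicle library 1 (adjusted p = 0.0506), and without any 1 daily library it was not tested. Stbd1 kept its call in 9 of 18 alternatives. It lost it without any 1 of vehicle libraries 1 and 3 or daily libraries 2 and 3 (up to 0.0989), without the third libraries (0.323), without mitochondrial genes, with no filter, with eBayes without trend and with only the groups compared (0.0529 to 0.0728).

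With weekly prednisone none of the list was called in muscle (limma). Between weekly and daily prednisone Pink1 and Foxo4 were called higher and Atp6v0d2 lower in muscle, 3 of 90 genes against 1.77% of all genes tested, where Atp6v0d2 again was tested only through its high daily libraries. Of these Pink1 kept its call with any 1 library left out, the calls of Foxo4 and Atp6v0d2 were lost without any 1 of the weekly libraries, and that of Foxo4 also without daily library 1 or 3 (adjusted p up to 0.171 for Foxo4 and 0.0927 for Atp6v0d2). Foxo4 held in 5 of 18 alternatives and was also lost with TMM factors, quantile normalization, no filter, a replicate block, eBayes without trend, only the groups compared, both tissues in 1 fit (0.0661 to 0.105) and without the third libraries (0.618), and Atp6v0d2 was also lost with the replicate block. In fat with weekly prednisone Atg16l2, a relative of the LC3 conjugation factor ATG16L1, was at 16.8, 12.0 and 17.3 TPM against 7.91, 6.36 and 8.70 TPM (0.91 ± 0.17, limma, adjusted p = 0.0195). Stbd1 was higher as well (0.37 ± 0.09, adjusted p = 0.0399) and Pink1 was lower, from 177 ± 9.89 to 145 ± 12.1 TPM (-0.29 ± 0.08, adjusted p = 0.0491). These 3 of 91 genes compare with the 7.43% of all genes tested. Atg16l2 held in 14, Stbd1 in 9 and Pink1 in 6 of 20 alternatives. Leaving out vehicle library 2 or 3 or weekly library 1 or 3 ended the call of Atg16l2 (adjusted p up to 0.0726), any library but weekly 2 that of Stbd1 (up to 0.111) and any library that of Pink1 (up to 0.121).

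Promoter windows, 250 bases before to 50 after a transcription start, were given for 6 members in 8 windows, from RefSeq on GRCm38.p6. The core letters of the element bound by TFEB, CACGTG, were searched on both strands because Tfeb is a member and was lower in muscle with daily prednisone than with vehicle. They lay in 1 of the 8 windows, that of Bnip3, and in 7.15% of 32851 windows of the same length. The stretch around it, chr7:138909549-138909674 on the minus strand, is printed with these letters in capitals, from 168 to 43 bases before the start.
Bnip3: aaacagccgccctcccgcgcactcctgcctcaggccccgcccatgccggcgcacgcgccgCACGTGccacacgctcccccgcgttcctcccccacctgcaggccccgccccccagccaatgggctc

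The shorter letters ACGTG of the hypoxia element lie inside this match on both strands and in 19.6% of all windows. The longer TFEB form GTCACGTG (2.25% of all windows), the FoxO forms TGTTTAC (3.65%) and TGTTTGC (5.07%), one arm of the glucocorticoid receptor element, TGTTCT (19.0%), and its full palindrome (0.00913%) were in none of the 8 windows. A match of letters is a description of the sequence and not a bound site.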

How the data were processed

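RNA-seq libraries were made from quadriceps muscle and white adipose tissue with a stranded mRNA kit, per the labels' protocols. The authors deposited TPM per transcript for 105129 transcripts, per the file header. The submitters' processing notes name Trimmomatic, HISAT2, kallisto and mm10 without version or order. TPM were summed per symbol. Genes reaching 1 TPM in 3 or more of the 9 libraries of a tissue were tested as log2(TPM + 1) with limma 3.58.1 in R 4.3.3 (lmFit, eBayes with trend), 12246 in muscle and 14150 in fat, with Benjamini-Hochberg adjustment over all of them and calls under 0.05, two-sided. Tissues were compared over 11737 genes by mouse, as both tissues of a mouse carry its label. All columns were used. Member transcripts matched GENCODE annotation of GRCm38 by identifier and version in 74 of 74 cases. Of the 10 genes of the chosen set 1 is not reported here, nor is 1 gene of the wider list. The members, lists and alternatives were chosen with earlier results of these data known. Genes named beyond the members are the up to 4 called genes of the wider list with the smallest adjusted p in each direction, and Ckm, Adipoq, Cd68, Lyz2 and Myh3 among markers. In addition, the 2 genes most like each called member are named. The fits were tested on simulated data. Alternatives were TMM or quantile scaling, mitochondrial genes left out, pseudocounts of 0.1 and 5, other filters, a replicate block, eBayes without trend, only the groups compared, both tissues in 1 fit, transcripts, Ckm as a covariate and libraries left out.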

Additional observations from a re-analysis of the deposited data

How the results depend on the processing

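Called members in muscle, daily prednisone against vehicle, numbered 4, and 1 with TMM factors and 0 with quantile normalization or without the third libraries (limma). Weekly against daily, 1 became 2 without mitochondrial genes and 0 with only the groups compared, without the third libraries or by transcripts. In fat, weekly against vehicle, 1 became 0 without the third libraries, 2 with both tissues in 1 fit, 2 without weekly libraries 2 and 3 and daily library 2, and 3 with Ckm as a covariate, where 2205 and 4291 of all genes tested were called, against 1052 in the reported fit. Without those libraries weekly fat is 1 library, assumed to vary like the other groups. Daily against vehicle in fat, 0 became 1 with both tissues in 1 fit. Leaving out 1 library gave 2 to 4 members (daily) and 0 to 2 (weekly against daily) in muscle, and 1 to 1 in fat (weekly).

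Of the wider list in muscle, daily against vehicle, 17 became 6 (TMM), 7 (quantile), 11 (no filter), 10 (only the groups compared), 0 (library 3 of each group left out) and 5 to 12 with 1 library left out. Weekly against daily, 3 became 0 (library 3 of each group left out) and 1 to 2 with 1 library left out. In fat, weekly against vehicle, 3 became 9 (TMM), 0 (no filter, or library 3 of each group left out), 5 (filter at 5 TPM), 1 (only the groups compared), 11 (both tissues), 8 (no libraries high in Ckm, so 1 weekly library), 22 (Ckm) and 0 to 3 with 1 library left out. Weekly against daily in fat, 0 became 2 (both tissues) and 6 (Ckm), and daily against vehicle 0 to 1 with 1 library left out. For the tissue difference of the weekly effect, 0 became 1 (no mitochondrial genes, or filter at 5 TPM), 3 (pseudocount 5) and 0 to 1 with 1 mouse left out.

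Member transcripts in muscle, daily against vehicle, went from 4 to 1 (TMM or quantile), 7 (filter at 5 TPM), 0 (library 3 of each group left out) and 1 to 4 with 1 library left out. Weekly against daily, 0 became 1 (filter at 5 TPM), and in fat, weekly against vehicle, 1 became 0 (library 3 of each group left out) and 0 to 1 with 1 library left out. Between tissues, TMM factors turned Map1lc3b to 0.52, Bnip3l to 0.28, Bnip3 to 0.17 and Becn1 to 0.044, and quantile normalization turned Map1lc3b to 0.16. The causes were not tested.

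Replicate numbers are not a pairing of mice: between same-numbered libraries of different groups the residuals had a median correlation of -0.0304 (muscle) and 0.0295 (fat), above 0.1 in 1 of 9 pairs in each. With a replicate block 4 members were still called in muscle (daily against vehicle) and 1 in fat (weekly against vehicle), but 0 for weekly against daily in muscle. The block moved the wider list to 11 and 1 genes in muscle (daily against vehicle, weekly against daily) and to 1 in fat (weekly against vehicle), and member transcripts to 3 in muscle and 0 in fat.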

Other observations

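Over the 9 muscle libraries the log2 levels of the members mostly moved in the same direction. Of 36 pairs of members 35 had a Pearson correlation above 0, with a median of 0.59. After each group's mean was taken out the median was 0.035. In fat 18 of 36 pairs were above 0, with a median of -0.027. These are descriptions over libraries that share regimen and scaling.

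The genes whose muscle pattern was most like that of a called member were Epm2a and Alpk3 for Ulk1 (Pearson r = 0.98 over 9 libraries for both), Tgm2 and Echs1 for Map1lc3b (0.99 and 0.97), Eif4ebp2 and Oat for Bnip3 (0.98 for both), and Tmem42 and Rpa1 for Tfeb (0.99 and 0.97). They were picked as the highest of 7227 genes. Among the members themselves the most like pair was Ulk1 and Bnip3 (0.89). In fat the genes most like Map1lc3a, among 9806, were Ndufv1 (0.98) and Mgst3 (0.97).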
